A study of Homo sapiens with 36 samples.

Results

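SUPT6H, the gene of the histone chaperone SPT6, was silenced in TC32 cells, an established Ewing sarcoma line, with 3 siRNAs named A1, A3 and Q3 (siSUPT6H), and each siRNA was measured on 3 arrays. These 9 arrays were compared with the 3 arrays of negative control siRNA (siNeg, replicates 1 to 3) whose columns share 1 median with those of siSUPT6H in the authors' normalized table, so the comparison used 12 of the 36 Illumina HT-12 bead arrays of the study. The siSUPT6H arrays were picked by their labels alone, and the siNeg arrays by their labels and this shared median. RNA was taken 48 h after transfection, and the labels give 20 nM for every array. The labels name no second line or clone and do not say whether the replicates were separate cultures, so p-values measure only the spread between these arrays, which may be technical. The other arrays held siRNAs against the splicing factor gene SF3B1 (9 arrays) and cells labelled Untreated (3 arrays), with the same median, and siRNAs against HNRNPH1 (9 arrays) with 3 siNeg arrays of their own, with another. A value below is the background-corrected, quantile-normalized log2 signal of the brightest probe of a gene, a change is siSUPT6H minus siNeg with the 3 siRNAs weighted equally, and a gene was called at a limma adjusted p below 0.05 (two-sided, Benjamini-Hochberg over 11437 genes).

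SPT6 travels with RNA polymerase II during elongation. It binds histones and puts nucleosomes back behind the polymerase, and it works beside the PAF1 complex, SPT5 and the kinase CDK9, which release and pace the polymerase. Because it acts on most transcribed genes, its loss can touch many classes of RNA, and array signals scaled to a common distribution show changes relative to other genes and not the total RNA per cell. In mixed RNA of a culture, fewer cells of one kind and less RNA per cell cannot be told apart.

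SUPT6H mRNA fell with each siRNA, least with Q3. It read 4.47, 4.71 and 4.74 with A1, 4.74, 4.93 and 4.91 with A3 and 5.69, 5.68 and 5.81 with Q3, against 7.004, 6.79 and 6.75 with siNeg. All 9 siSUPT6H arrays lay below all 3 siNeg arrays, and the probe was above background on 0 of 3 A1, 2 of 3 A3 and 3 of 3 Q3 arrays. The change of the mean was -1.77 (SE 0.118, limma adjusted p = 1.39e-18), which is no exact share left, since the A1 arrays did not detect the probe. The change was smaller, -0.81, without background correction, and -0.87 in the authors' deposited normalized values. With undetected arrays set at the lowest detected signal, the estimate for A1 was at most 25.7% of the siNeg level and for A3 at most 25.8%. These limits for A1 and A3 leave out the spread between arrays. Q3, detected on every array, left an estimated 45.9% (95% interval 37.6 to 56.1). Q3 lay 0.97 above the mean of A1 and A3 (adjusted p = 1.02e-08). SUPT6H mRNA was also 1.14 lower with siSF3B1 and 0.78 lower with siHNRNPH1 than with their own siNeg arrays, and siSUPT6H lay 0.63 below siSF3B1 (adjusted p = 1.63e-09).

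The Ewing sarcoma label was checked on 10 markers, of which 9 were measured and 9 were above background on all 12 arrays. CD99, the surface antigen used to diagnose the tumour, read 10.47 to 10.92 with siSUPT6H and 10.09 to 10.24 with siNeg. Of markers of other cell types, 3 of 12 blood, 5 of 11 epithelial and 1 of 12 skeletal muscle genes were measured, with summed linear signals of 127 to 172, 164 to 190 and 60.8 to 74 with siSUPT6H, against 126 to 133, 150 to 161 and 69.4 to 76.3 with siNeg. Of those measured, 1 blood, 2 epithelial and 1 muscle gene were above background on all 12 arrays. The defining genes PTPRC of blood and MYOD1 of muscle did not reach the detection filter, and EPCAM of epithelium was above background on 1 of 9 siSUPT6H and 0 of 3 siNeg arrays. Between 14990 and 16788 probes were above background on a siSUPT6H array and between 15412 and 16295 on a siNeg array.

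Silencing moved a large share of the measured genes. The mean of the 3 siRNAs called 5424 of 11437 genes (47.4%), 2934 higher (25.7%) and 2490 lower (21.8%), and the median change of all genes was 0.03. Singly, A1 called 4704 genes (41.1%), 2483 higher (21.7%) and 2221 lower (19.4%), A3 4973 (43.5%), 2670 higher (23.3%) and 2303 lower (20.1%), and Q3 5011 (43.8%), 2765 higher (24.2%) and 2246 lower (19.6%). With arrays scaled by their median in place of quantiles, 68.1% of the Q3 calls were higher, against 55.2% with quantiles. The same direction was called with all 3 siRNAs for 2699 genes (23.6%), 1417 higher (12.4%) and 1282 lower (11.2%), and 115 of these rose and 147 fell by at least 1 with each siRNA. The arrays did not overlap between siSUPT6H and siNeg for 3207 genes (28%), 1686 higher (14.7%) and 1521 lower (13.3%). The spread among siRNAs bore on these counts: with the siRNA as a random block, limma called 2054 genes for the mean. The siNeg arrays themselves differed from Untreated in 849 genes (7.42%), with 305 higher (2.67%) and 544 lower (4.76%).

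Falls were led by the ATF4 pathway. ATF4 is the transcription factor that amino acid shortage and other stresses bring into play, and it drives genes for amino acid synthesis, uptake and tRNA charging as well as further regulators. Of 22 measured pathway regulators and secreted factors 21 were called lower and 0 higher, all 21 with each siRNA, with a median change of -1.87 against 0.03 for all genes. With the siRNA as a random block 19 were called lower. The summed linear signal of the list was 4404 to 5153 on the siSUPT6H arrays, against 18470 to 21120 on the siNeg arrays. The list had been drawn up with earlier results of these data known, so its direction is a description.

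The promoters of CHAC1 and ASNS are shown because both hold the core of the element that ATF4 dimers bind, TGATGNAA, here in capitals (GRCh38.p14, RefSeq, 250 bases before to 50 after the first listed start of the gene, read 5′ to 3′ along the gene).
CHAC1 (chr15:40953221-40953520, plus strand): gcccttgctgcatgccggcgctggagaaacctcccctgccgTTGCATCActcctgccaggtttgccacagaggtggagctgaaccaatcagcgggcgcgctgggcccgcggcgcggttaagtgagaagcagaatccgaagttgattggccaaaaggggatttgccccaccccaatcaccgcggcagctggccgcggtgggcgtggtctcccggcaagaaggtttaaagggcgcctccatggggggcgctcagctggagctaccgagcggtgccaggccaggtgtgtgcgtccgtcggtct
ASNS (chr7:97872359-97872658, minus strand): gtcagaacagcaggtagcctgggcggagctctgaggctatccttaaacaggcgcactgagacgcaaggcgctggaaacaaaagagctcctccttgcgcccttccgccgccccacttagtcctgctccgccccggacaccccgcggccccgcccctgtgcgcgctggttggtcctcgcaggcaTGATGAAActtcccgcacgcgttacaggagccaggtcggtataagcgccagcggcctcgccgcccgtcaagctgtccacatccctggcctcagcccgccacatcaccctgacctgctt
In CHAC1 the match lies on the other strand and begins 209 bases before the start, and in ASNS it begins 68 bases before the start. The ASNS match overlaps a match to GAANNTTC, the heat shock motif described below. Searched on both strands, the core stood in 13 of 65 promoters (20%) of the measured ATF4 pathway, amino acid synthesis, transporter and cytosolic tRNA synthetase genes, against 157 of 9190 (1.71%) promoters of measured genes and 1003 of 27305 (3.67%) in the whole table. A letter match is a description and not a binding site.

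The regulators fell together with the gene of ATF4 itself. TRIB3, a pseudokinase that feeds back on ATF4, read 7.03, 7.33 and 7.75 (lowest, median and highest of 9 arrays) with siSUPT6H, against 11.25, 11.34 and 11.24 with siNeg, and so fell (-3.99, SE 0.0943, limma adjusted p = 3.69e-38). DDIT3, the stress factor CHOP, read 5.29, 5.62 and 5.89 with siSUPT6H, against 9.47, 9.43 and 9.40 with siNeg (-3.78, adjusted p = 1.3e-37). The groups were more than 3 log2 units apart for both genes, and the siRNAs lay close together, at -3.98, -3.89 and -4.10 for TRIB3. ATF4 changed by -2.11, ATF3 by -2.56, ATF5 by -3.26 and the chromatin protein NUPR1 by -3.42, all called. ATF5 was the least even of them, with -2.94 and -2.67 for A1 and A3 and -4.17 for Q3. Of the list INHBE (-0.17, adjusted p = 0.318), above background on none of the 12 arrays, was the 1 member not called. The 2 outermost probes of ATF4 itself gave -2.95 and -0.21.

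Some members fell out of detection. GDF15, a secreted stress cytokine, was above background on 0 of 9 siSUPT6H and 3 of 3 siNeg arrays and fell at least 9.55-fold (adjusted p = 3.92e-26). CHAC1, which breaks down glutathione, fell at least 4.01-fold on the same basis (adjusted p = 2.53e-23). GDF15 was also 1.12 higher with siNeg than in Untreated cells, and 8 of the 22 list members were called higher and 0 lower in that comparison, with a median of 0.32. Against Untreated in place of siNeg, 21 members were called lower with siSUPT6H and the list median was -1.64.

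The enzymes of serine, one-carbon and asparagine synthesis fell as well: 16 of 18 were called lower and 0 higher, 14 with each siRNA, at a median of -1.11. ASNS, which makes asparagine, read 8.56, 8.70 and 8.95 with siSUPT6H, against 12.07, 12.30 and 12.17 with siNeg (-3.48, SE 0.0813, adjusted p = 3.69e-38). PCK2, the mitochondrial phosphoenolpyruvate carboxykinase, changed by -3.78, although its probes ran from -3.78 to -1.18. The serine pathway enzymes changed in order by -1.78 (PHGDH), -2.09 (PSAT1) and -1.31 (PSPH), and the mitochondrial folate enzyme MTHFD2 by -2.01. Cystathionine gamma-lyase (CTH), counted with the regulators above, fell by 2.95. SHMT1, a cytosolic folate enzyme, and ALDH18A1, which starts proline synthesis, were not called, at -0.05 and 0.13.

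Genes for tRNA charging fell mainly in the cytosolic set. Of 18 cytosolic aminoacyl-tRNA synthetases 14 were called lower and 4 higher (median -0.93), while of 15 mitochondrial ones 4 were lower, 2 higher and 9 not called (median -0.10). Over all genes 21.8% were lower and 25.7% higher, and the lower count of the mitochondrial set lies near its share. AARS1, which charges alanine tRNA, read 9.49, 9.77 and 10.19 with siSUPT6H, against 11.83, 11.98 and 11.88 with siNeg (-2.12, adjusted p = 3.71e-29). MARS1 (methionine) changed by -1.98, WARS1 (tryptophan) by -1.78 and SARS1 (serine) by -1.66. The 4 that were called higher were HARS1 (0.45), QARS1 (0.38), RARS1 (0.25) and FARSB (0.18), which charge histidine, glutamine, arginine and phenylalanine. Of these, QARS1 alone was called higher with each siRNA, and 1 cytosolic synthetase was higher and 13 lower under the random siRNA block. The mitochondrial serine enzyme SARS2 fell by 0.87 and the asparagine enzyme NARS2 by 0.43, and with the siRNA as a random block 1 mitochondrial synthetase was called lower. HARS2, the mitochondrial histidine enzyme, was called lower against siNeg (-0.39) but stood at 0.06 against Untreated (adjusted p = 0.593).

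Of 20 amino acid transporters 10 were called lower and 4 higher, at a median of -0.47, beside 21.8% of all genes lower and 25.7% higher. All 10 falls were called with each siRNA, and 10 members were called lower under the random block. SLC7A5 and SLC3A2, the light and heavy chains of the large neutral amino acid transporter, fell by 1.76 and by 1.58. The glycine transporter SLC6A9 fell by 1.86 and the arginine and lysine transporter SLC7A1 by 1.57. Those called higher were SLC7A8 (0.66), SLC36A1 (0.50), SLC38A9 (0.47) and SLC38A7, undetected on all 3 siNeg arrays and at least 1.18-fold higher, and SLC38A9 and SLC36A1 act at the lysosome. The siSF3B1 and siHNRNPH1 medians against their own siNeg arrays were -1.75 and -1.86 for the ATF4 pathway, -1.29 and -1.33 for the serine, one-carbon and asparagine enzymes, -1.23 and -1.10 for the cytosolic synthetases and -0.10 and -0.42 for the transporters, beside -0.06 and -0.02 over all genes. Over all genes siSF3B1 called 61.9%, 26.2% higher and 35.7% lower, and siHNRNPH1 45.1%, 21.6% higher and 23.5% lower. The siSF3B1 value shares the siNeg arrays with siSUPT6H.

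**Figure D1:**
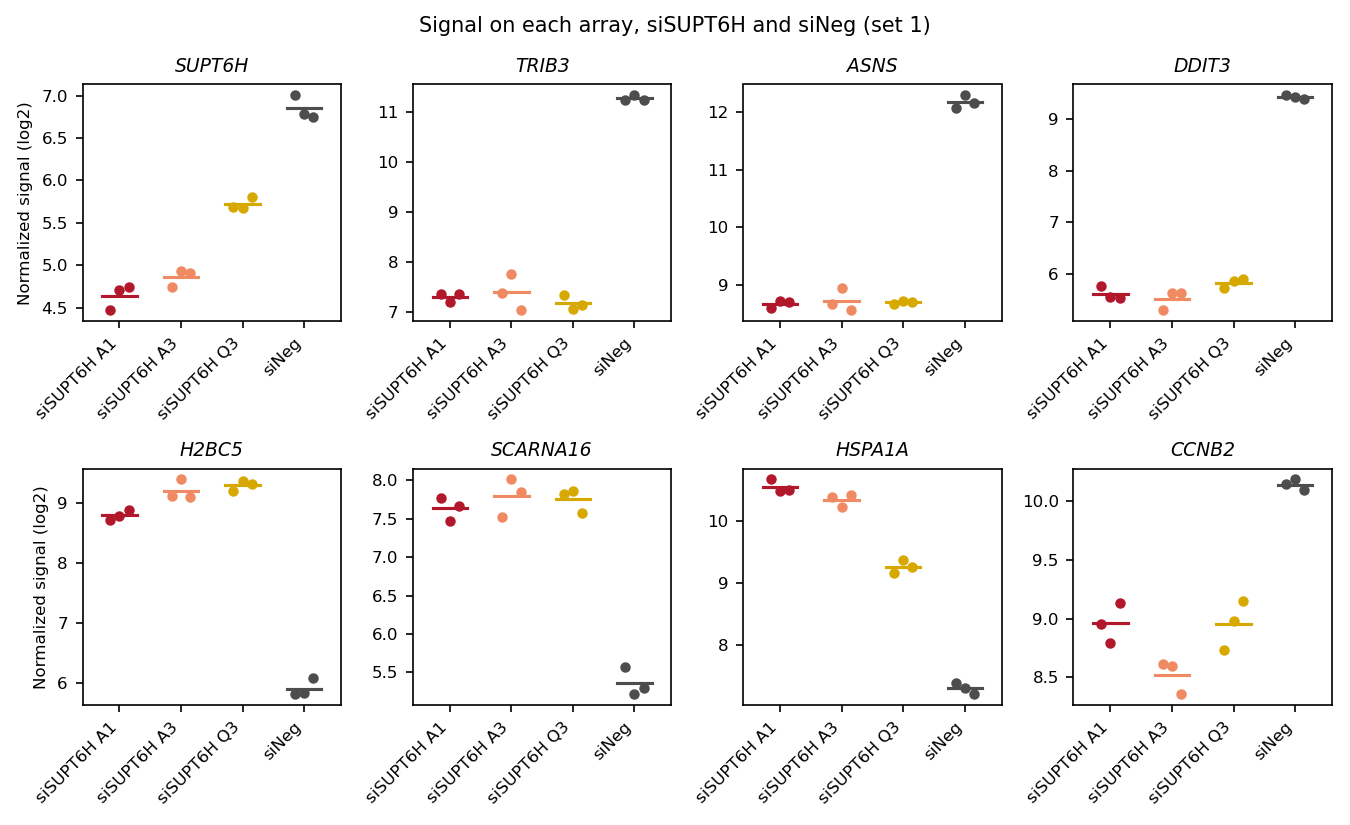
Normalized log2 signal of 8 genes on each of 12 arrays (points, 3 per group) with group means (lines); vertical axes differ between panels and do not start at 0. For all 8 genes the 9 siSUPT6H arrays lie apart from the 3 siNeg arrays, and SUPT6H and HSPA1A show Q3 nearer to siNeg than A1 and A3.

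Genes of cell division fell nearly throughout their list. Of 49 measured G2/M and mitosis genes 48 were called lower and 0 higher, 42 with each siRNA, at a median of -0.86, and 42 were called with the siRNA as a random block. Against their own siNeg arrays the list median was 0.10 with siSF3B1 and -0.41 with siHNRNPH1. TPX2, a spindle assembly factor, read 7.51, 7.85 and 8.16 with siSUPT6H, against 9.66, 9.43 and 9.19 with siNeg (-1.62, adjusted p = 3.48e-21). CCNB2, a mitotic cyclin, read 8.35, 8.79 and 9.15 with siSUPT6H, against 10.15, 10.19 and 10.10 with siNeg (-1.33, adjusted p = 4.27e-19). The kinesin KIF2C fell by 1.54, the centromere histone CENPA by 1.40 and the kinases AURKA and AURKB by 1.31 and by 1.20. MKI67 was the 1 gene not called (-0.13, adjusted p = 0.433), with detection on 3 of 9 siSUPT6H and 1 of 3 siNeg arrays.

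The CCNB2 and CENPA promoters are shown for 2 motifs of cell cycle promoters, the CHR element TTTGAA and the CCAAT box, with both in capitals (ATTGG is a CCAAT box on the other strand; same window and source as above).
CCNB2 (chr15:59104896-59105195, plus strand): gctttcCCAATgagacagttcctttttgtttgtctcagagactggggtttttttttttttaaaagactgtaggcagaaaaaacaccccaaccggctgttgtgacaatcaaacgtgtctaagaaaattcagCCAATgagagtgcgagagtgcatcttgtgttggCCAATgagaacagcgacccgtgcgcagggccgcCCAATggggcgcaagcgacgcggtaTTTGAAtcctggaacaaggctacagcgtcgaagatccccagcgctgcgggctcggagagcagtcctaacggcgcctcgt
CENPA (chr2:26785806-26786105, plus strand): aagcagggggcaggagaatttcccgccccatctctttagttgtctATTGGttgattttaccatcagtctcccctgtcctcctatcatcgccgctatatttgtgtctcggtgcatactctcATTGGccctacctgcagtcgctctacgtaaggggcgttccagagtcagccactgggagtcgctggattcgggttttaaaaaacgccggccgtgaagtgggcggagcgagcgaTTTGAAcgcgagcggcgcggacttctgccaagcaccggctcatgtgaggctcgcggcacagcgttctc
In CCNB2 the CHR match begins 29 bases before the start, behind 4 CCAAT boxes, and in CENPA 18 bases before the start, behind 2. No match overlaps another in either promoter. Of 41 promoters of measured G2/M genes 29 held TTTGAA (70.7%) and 33 held CCAAT (80.5%) on either strand, against 10.3% and 37.1% of the promoters of all measured genes and 15.4% and 35.7% of the whole table.

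DNA replication and G1/S genes moved less evenly: of 49, 31 were called lower, 6 higher and 12 not called (median -0.40). With each siRNA 22 were lower and 1 higher, and the random-block fit gave the same counts. The primase PRIM1 fell by 1.41, the clamp loader subunit RFC4 by 1.11, the checkpoint kinase CHEK1 by 1.01 and the helicase subunit MCM2 by 0.80, while the D-type cyclin CCND3 rose by 0.97. These genes also moved between the controls. In siNeg 25 of the 49 were called lower and 1 higher than in Untreated, and against Untreated the siSUPT6H median was -0.77, with 42 lower and 3 higher. CDKN1A, the cyclin-dependent kinase inhibitor p21 and a p53 target, read 9.89, 10.58 and 10.81 with siSUPT6H, against 8.03, 8.42 and 8.31 with siNeg (2.18, SE 0.089, adjusted p = 1.63e-27). Its probes ran from 0.27 to 2.18. The 24 measured p53 targets as a list held 10 rises and 7 falls (median 0.17), beside 25.7% of all genes higher and 21.8% lower. Of these targets SESN2 (-1.48) and PMAIP1 (-1.34) fell.

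Most heat shock genes rose, beside 25.7% of all genes higher and 21.8% lower. Of 30 measured 22 were called higher, 14 with each siRNA, 7 were not called and 1 was lower, the mitochondrial chaperone HSPA9 (-0.90), at a median of 0.48. Under the random siRNA block 11 were called higher, and against Untreated 17 (median 0.31). HSPA1A, the main stress-inducible HSP70, read 10.67, 10.48 and 10.50 with A1, 10.38, 10.22 and 10.40 with A3 and 9.16, 9.36 and 9.24 with Q3, against 7.38, 7.31 and 7.20 with siNeg (2.75, SE 0.121, adjusted p = 4.72e-26). Q3 lay 1.19 below the mean of A1 and A3 (adjusted p = 1e-10). HSPA1B, its near-identical neighbour, changed by 2.28, and a probe of 1 copy may bind RNA of the other, so these 2 values are uncertain as values of single genes. Both were lower with siNeg than in Untreated (-0.59 and -0.54). The HSPA1A promoter is shown with its match to the heat shock motif GAANNTTC, in capitals, which begins 106 bases before the start (same window and source).
HSPA1A (chr6:31815293-31815592, plus strand): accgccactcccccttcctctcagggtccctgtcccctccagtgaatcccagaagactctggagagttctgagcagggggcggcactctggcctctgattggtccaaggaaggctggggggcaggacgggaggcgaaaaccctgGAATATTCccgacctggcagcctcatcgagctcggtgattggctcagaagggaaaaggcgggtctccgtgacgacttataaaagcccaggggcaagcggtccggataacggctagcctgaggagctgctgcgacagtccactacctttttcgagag
The motif is its own reverse complement and overlapped no other motif there. Of 27 promoters of measured heat shock genes 10 held it (37%), against 443 of 9190 (4.82%) promoters of measured genes and 1875 of 27305 (6.87%) in the whole table.

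The genes of the unfolded protein response of the endoplasmic reticulum moved less. Beside 25.7% of all genes higher and 21.8% lower, 12 of 22 were called higher, 3 lower and 7 not called (median 0.25). With each siRNA 8 were higher and 1 lower, as many as under the random siRNA block, and against Untreated 7 were higher and 2 lower (median 0.14). SDF2L1, a co-chaperone of the ER, rose by 1.69 and CRELD2 by 0.84, and XBP1, whose spliced form drives this branch, fell by 1.39. SDF2L1 was 0.80 lower with siNeg than in Untreated (adjusted p = 2.1e-07).

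**Figure D2:**
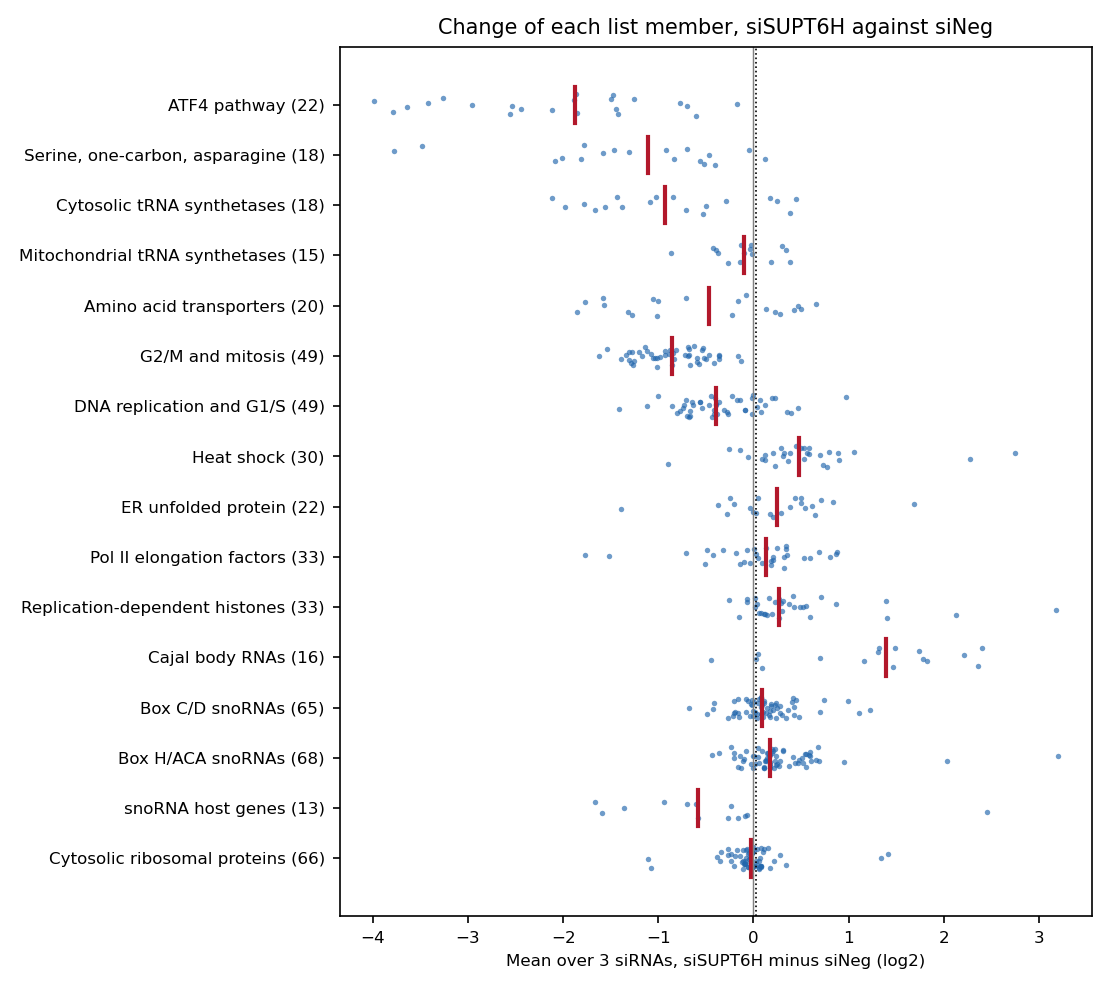
Mean change (log2, horizontal axis) of each measured member of 16 gene lists, siSUPT6H against siNeg; points are genes, red bars list medians, the dotted line the median of all genes (0.03), and numbers in parentheses the members measured. The ATF4 pathway lies at -1.87 and G2/M genes at -0.86, while Cajal body RNAs lie at 1.39.

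Genes of SPT6's own machinery moved in both directions. Of 33 elongation factors and partners measured 12 were called higher, 7 lower and 14 not called (median 0.13). Over all genes 25.7% were higher and 21.8% lower, and the count of lower members lies near its share. With the siRNA as a random block 5 members were higher and 3 lower. The silenced gene SUPT6H is itself a member and is counted among the lower ones both times. TCEA1, the elongation factor that rescues stalled polymerase, read 9.08, 9.49 and 9.64 with siSUPT6H, against 11.07, 10.60 and 11.21 with siNeg (-1.52, SE 0.127, adjusted p = 7.55e-15). CDK9, the kinase of P-TEFb, read 8.07, 8.03 and 8.14 with A1, 8.14, 8.27 and 8.06 with A3 and 7.51, 7.19 and 7.52 with Q3, against 6.89, 7.11 and 7.04 with siNeg (0.87, adjusted p = 4.01e-10). CTR9 of the PAF1 complex rose by 0.80, and SKIC8, which works in it too, by 0.53. With siSF3B1 and siHNRNPH1, against their own siNeg arrays, TCEA1 changed by -1.36 and -1.765. CDK9 changed there by -0.52 and 0.21, CTR9 by -0.62 and 0.62 and SKIC8 by -1.01 and 0.09.

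Of the remaining calls, the super elongation complex scaffolds AFF1 and AFF4 rose by 0.88 and by 0.69, and ELL2, of the same complex, by 0.59. The H3K36 methyltransferase SETD2, whose protein binds SPT6, rose by 0.34, NELFCD of the pausing complex by 0.32, and SUPT4H1, the partner of SPT5, by 0.25. NELFA and NELFB fell by 0.50 and by 0.43, and the FACT subunits SSRP1 and SUPT16H by 0.49 and by 0.32. The remodelers CHD2 and CHD1 went apart, at -0.71 and 0.36, and the demethylase KDM6A rose by 0.34. CHD2 also changed by -0.67 with siSF3B1 and by -0.58 with siHNRNPH1, against their own siNeg arrays. HEXIM1, the P-TEFb inhibitor, was called (adjusted p = 0.0425) and is counted among the 12, but it was above background on 2 of 9 siSUPT6H and 0 of 3 siNeg arrays, so no fold is given. Without the block all of these were called; with it SETD2, SUPT4H1, SUPT16H, SSRP1, NELFA, NELFB, NELFCD, HEXIM1, ELL2, KDM6A and CHD1 were not.

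Of 12 RNA polymerase II subunits 6 were called higher, 4 lower and 2 not called. Over all genes 25.7% were higher and 21.8% lower. POLR2L, a small subunit shared by all 3 nuclear polymerases, rose by 1.64, and the catalytic subunit POLR2A read 9.77, 9.94 and 10.38 with siSUPT6H, against 9.33, 9.30 and 9.17 with siNeg (0.74, adjusted p = 2.06e-10). POLR2E (0.71) was carried by A1 and A3, at 0.98 and 1.04, and lay at 0.10 with Q3. Histone chaperones held 9 falls and 4 rises of 21 (median -0.23), led by MCM2 (-0.80), HJURP (-0.74), NASP (-0.71) and CHAF1A (-0.66). In the random-block fit 4 polymerase subunits were higher and 1 lower, and 1 chaperone was higher and 4 lower.

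Histone genes rose at a few members. The kit makes cRNA from poly(A) ends, and most replication-dependent histone mRNAs carry a stem-loop in place of a poly(A) tail, so which form of the RNA gave these signals was not tested. Of the 63 listed 30 were not measured. Beside 25.7% of all genes higher and 21.8% lower, 15 of 33 measured were called higher and 0 lower (median 0.27), 7 with each siRNA. Against Untreated 9 were higher and 1 lower, and with the siRNA as a random block 5 were higher. H2BC5 read 8.71, 9.11 and 9.39 with siSUPT6H, against 5.82, 5.84 and 6.08 with siNeg (3.18, SE 0.107, adjusted p = 4.24e-31). H2AC6 rose by 2.13, H2AC18 by 1.41 and H2BC12 by 1.39. Members of this family are near copies of each other, so a probe's gene is uncertain. Among genes outside the replication-dependent set H2AJ rose by 0.88, and H2AX fell by 0.78, or by 0.48 without siNeg replicate 1.

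Small guide RNAs of the Cajal body, which direct the modification of spliceosomal RNAs, had the highest list median among the rises. Of 16 measured Cajal body RNA genes 12 were called higher, all 12 with each siRNA, and 1 lower, at a median of 1.39. Against their own siNeg arrays the list median was 0.67 with siSF3B1 and 1.84 with siHNRNPH1, so the rise is not particular to siSUPT6H. SCARNA16 read 7.47, 7.77 and 8.01 with siSUPT6H, against 5.57, 5.22 and 5.30 with siNeg (2.36, adjusted p = 1.88e-23). SCARNA18 rose by 2.40, SCARNA13 by 1.78 and SCARNA9 by 1.75, and SCARNA8, undetected on all 3 siNeg arrays, rose at least 3.81-fold (adjusted p = 4.21e-18). SCARNA10 was the member called lower (-0.44). Mature RNAs of this class carry no poly(A) tail, and which form of the RNA gave the signal was not tested here either. Without background correction the list median was 0.53, with the same 12 and 1 counts.

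Other small nucleolar RNAs, the guides of ribosomal RNA modification, had list medians nearer 0. Beside 25.7% of all genes higher and 21.8% lower, 14 of 65 box C/D genes were called higher and 4 lower. Of 68 box H/ACA genes 22 were higher and 2 lower, and the medians of these lists were 0.09 and 0.18. With the siRNA as a random block 4 of each kind were higher and 0 lower. SNORA12 stood out from its list, reading 9.61, 9.99 and 10.16 with siSUPT6H, against 6.65, 6.47 and 7.07 with siNeg (3.20, SE 0.112, adjusted p = 2.08e-30). It also changed by 1.38 with siSF3B1 and by 2.935 with siHNRNPH1, against their own siNeg arrays. The host transcripts that carry such RNAs in their introns went down, 9 of 13 lower and 1 higher (median -0.59), and 7 were lower under the random siRNA block. In siNeg 4 of the 13 were higher and 0 lower than in Untreated, and against Untreated the siSUPT6H median was -0.35, with 8 lower. SNHG1 fell by 1.67, SNHG7 by 1.59 (its probes ran from -1.66 to 0.02) and SNHG32 by 1.36, while SNHG9 rose by 2.45 with values of 2.48, 2.99 and 1.88 by siRNA.

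Long noncoding genes mostly stayed below the threshold: of 149 antisense, divergent and intergenic RNA genes measured 32 were called higher (25.7% of all genes were), 8 lower and 109 not called. ATP2B1-AS1 rose by 2.55 and LINC02076 by 2.12, both less with Q3 (1.97 and 1.26), and VLDLR-AS1 fell at least 2.47-fold, and the strand of these probes was not checked. Splicing regulator genes held 18 falls and 4 rises of 29 hnRNP genes (median -0.24) and 13 rises and 1 fall of 24 SR proteins and their kinases (median 0.27). The SR kinase CLK4 rose by 0.79 and SRSF9 by 0.69, and TAF15 fell by 0.97. Under the random siRNA block 7 hnRNP genes were lower and 7 SR genes higher, and against Untreated the SR list held 8 rises and 6 falls. Ribosomal protein genes, with 52 of 66 not called, had a median of -0.03.

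The 14 rises and 14 falls that were largest with every siRNA also held genes outside these lists. TRIM55, a muscle ubiquitin ligase, read 9.42, 9.54 and 9.41 with A1, 8.87, 8.999 and 9.21 with A3 and 9.41, 9.43 and 9.51 with Q3, against 5.85, 5.71 and 5.67 with siNeg (3.57, SE 0.112, adjusted p = 2.31e-32). The surface proteins CD248 and VASN rose by 2.70 and by 3.22, VASN less with Q3 (2.32). ANGPTL4, an inhibitor of lipoprotein lipase, rose by 2.83, with probes from 0.20 to 2.83. The kinase gene IDNK, which acts on gluconate, rose by 2.16 and INKA1 by 2.10. With siHNRNPH1 against its own siNeg arrays TRIM55 changed by 3.82, CD248 by 2.38, VASN by 3.28 and ANGPTL4 by 1.96. INKA1 changed by 1.62 there and IDNK by -0.23. With siSF3B1 against siNeg TRIM55 changed by -1.02, CD248 by -0.12, VASN by 1.80, ANGPTL4 by 1.26, INKA1 by 0.45 and IDNK by -1.50. The 18S ribosomal RNA probe RNA18SN5 rose by 2.46, but siNeg replicate 1 read 7.08 beside 10.16 and 10.69 in the others, and without it the change was 1.35.

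Of the 14 falls, 9 were genes of the ATF4 and amino acid lists: TRIB3, PCK2, DDIT3, GDF15, ASNS, NUPR1, ATF5, CTH and CHAC1. The other 5 were BEX2, S100P, AKNA, LGALS7B and RPS6KA2. These 5 falls are not particular to siSUPT6H. With siSF3B1 against siNeg they changed, in this order, by -2.92, -2.73, -2.56, -2.51 and -3.05. With siHNRNPH1 against its own siNeg arrays they changed by -2.35, -2.725, -2.87, -2.18 and -2.45. BEX2, expressed in neurons, read 6.17, 6.54 and 6.91 with siSUPT6H, against 9.52, 9.88 and 9.74 with siNeg (-3.14, adjusted p = 2.13e-32). S100P, a calcium-binding protein, fell at least 4.72-fold (adjusted p = 1.11e-25), and LGALS7B at least 4.3-fold (adjusted p = 3.85e-24). AKNA changed by -2.85, and RPS6KA2, a kinase of the MAPK pathway, by -2.71 with detection on 4 of 9 siSUPT6H arrays.

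**Figure D3:**
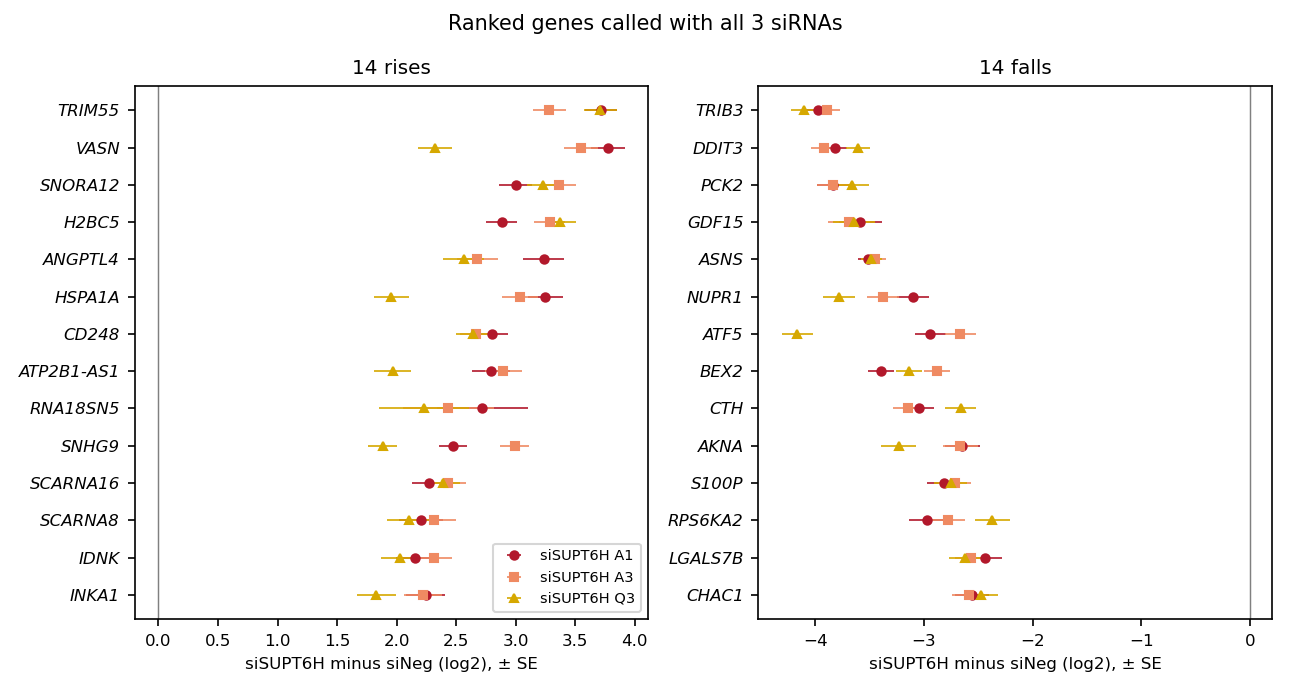
Change (log2, ± SE, horizontal axis) with each siSUPT6H siRNA of the 14 rises and 14 falls whose smallest change over 3 siRNAs was largest. All 28 genes lie on the same side of 0 with each siRNA, and Q3 lies nearest to 0 for HSPA1A and VASN.

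The genes whose fusion marks Ewing sarcoma are given by their brightest probes, and whether these measure the fusion transcript was not tested. EWSR1 read 9.37, 9.57 and 9.75 with siSUPT6H, against 10.01, 10.01 and 10.01 with siNeg (-0.44, adjusted p = 6.6e-05; adjusted p = 0.0638 with the siRNA as a random block). FLI1 read 5.92, 6.56 and 6.94 with siSUPT6H, against 6.21, 6.68 and 6.50 with siNeg, and the groups overlapped (-0.01, adjusted p = 0.956). Against all 6 siNeg arrays FLI1 was called higher (0.59, adjusted p = 0.00276). Of 35 activated targets of the fusion 11 rose and 11 fell (median 0.03), and of 28 repressed targets 11 rose and 9 fell (median 0.02), beside 25.7% of all genes higher and 21.8% lower. In the random-block fit 5 and 5 of the activated and 7 and 3 of the repressed targets did so. LIPI, a lipase gene among the activated targets, rose by 0.94 and COL5A1, a collagen gene among the repressed ones, by 1.21.

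The siRNAs did not act alike on every gene. With a single siRNA alone, 500 genes were called with A1, 738 with A3 and 1254 with Q3, and Q3 differed from the mean of A1 and A3 in 3773 genes (33%), 1990 higher (17.4%) and 1783 lower (15.6%). In 227 genes 2 siRNAs were called in opposite directions. LAMA4, a laminin chain, read 7.75, 7.88 and 7.76 with A1, 7.80, 7.73 and 7.79 with A3 and 5.29, 5.18 and 5.19 with Q3, against 5.82, 5.75 and 5.69 with siNeg, which gave 2.05, 2.02 and -0.53. HSPH1, an HSP110 chaperone, gave 0.82, -0.75 and 1.52 with A1, A3 and Q3, TTYH3, a chloride channel gene, 0.36, 0.53 and -1.69, and SPNS1, a lysosomal lipid transporter, -1.36, 0.80 and 0.41. For none of these 4 does the mean over siRNAs describe the single siRNAs.

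**Figure D4:**
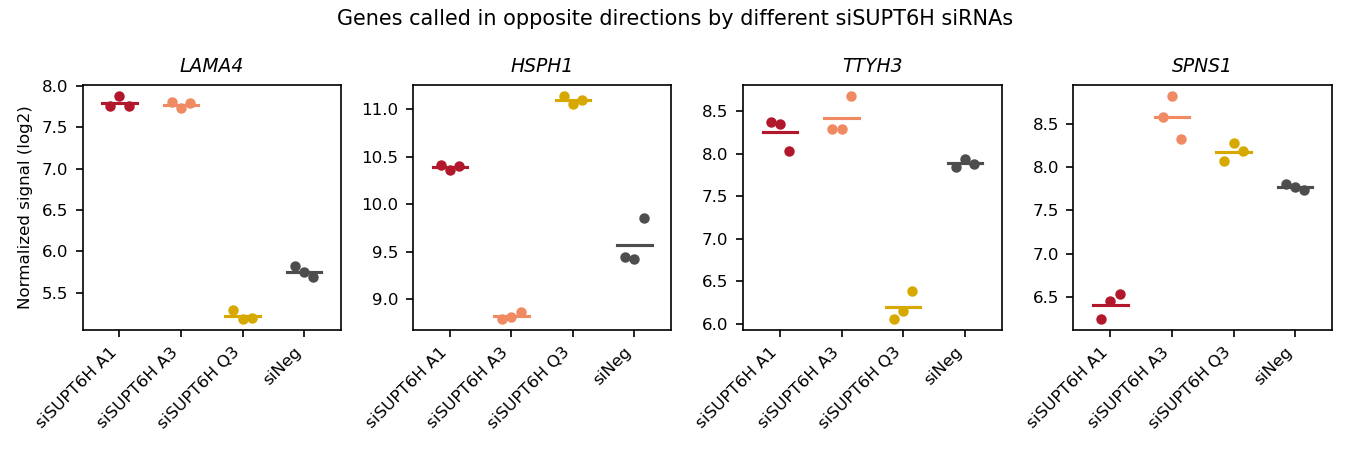
Normalized log2 signal of 4 genes called in opposite directions by different siSUPT6H siRNAs, on each of 12 arrays (points, 3 per group) with group means (lines); vertical axes differ and do not start at 0. In LAMA4 the Q3 arrays (5.18 to 5.29) lie below siNeg and A1 and A3 above it.

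The direct comparison with siSF3B1, in which the siNeg arrays cancel, called 8387 genes (73.3%), 4888 higher with siSUPT6H (42.7%) and 3499 lower (30.6%). With the siRNA as a random block it called 5972 genes, 3570 higher and 2402 lower. With arrays scaled by their median in place of quantiles the higher share of the calls was 70.7%, against 58.3% with quantiles. Box C/D and H/ACA guide RNAs were mostly lower with siSUPT6H than with siSF3B1. Of 65 box C/D genes 60 were lower (median -1.07) and of 68 box H/ACA genes 58 (median -1.19), against 0.08 for all genes. Against siNeg these lists had medians of 1.22 and 1.47 with siSF3B1 and 0.09 and 0.18 with siSUPT6H. Of 16 Cajal body RNA genes 6 were higher and 4 lower with siSUPT6H than with siSF3B1 (median 0.11). Of the 49 G2/M genes 46 were lower with siSUPT6H than with siSF3B1 and 1 was higher (median -0.92). The ATF4 list divided, with 11 lower, 6 higher and 5 not called (median -0.24), and DDIT3 was 3.23 lower with siSUPT6H while ASNS was 0.15 lower. Among genes called with all 3 siSUPT6H siRNAs the differences were largest for TRIM55 (4.59), IDNK (3.67), CCDC3 (3.13) and H2BC5 (2.92), higher with siSUPT6H, and for SNHG1 (-3.69), SNHG17 (-3.39), DDIT3 (-3.23) and PVT1 (-2.94), lower.

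**Figure D5:**
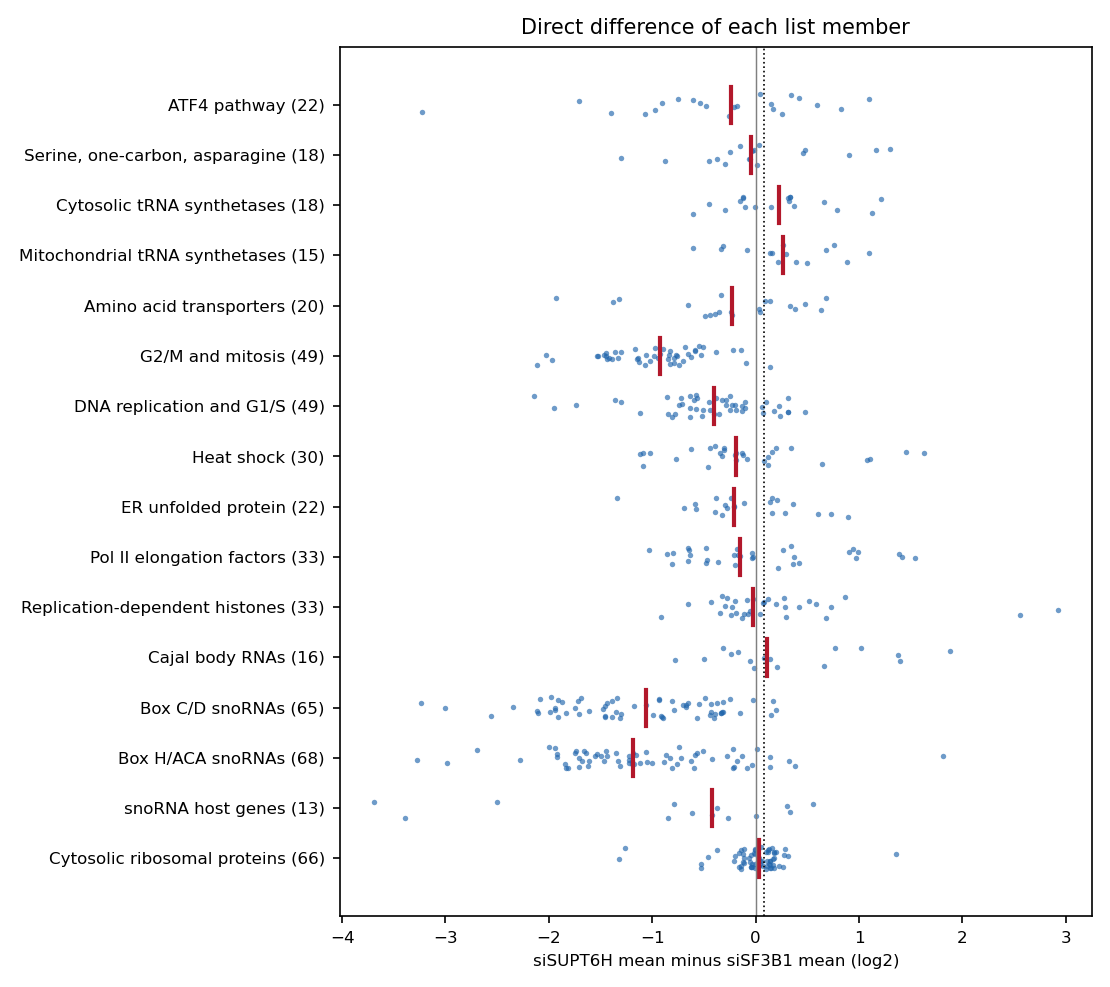
Direct difference (log2, horizontal axis) between siSUPT6H and siSF3B1 for each measured member of 16 gene lists; points are genes, red bars list medians and the dotted line the median of all genes (0.08). Box C/D and H/ACA snoRNAs and G2/M genes lie lower with siSUPT6H, at medians of -1.07, -1.19 and -0.92, and ribosomal protein genes at 0.03.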

How the data were processed

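Gene lists and members were chosen with earlier results of these data known. Per the submitters' processing notes GenomeStudio, R 3.0.2 and lumi were used. The deposited signal table holds bead intensity, not normalized, of 47323 probes, with a deposited detection p-value each. The authors also deposited log2 values of 47231 probes, normalized by a method not given in the sources used here, and these served as an alternative. The names of the Untreated columns were assigned to that group by elimination. For 33 of 33 arrays with a sample of their own the best match between both tables was the array's own column (correlation at least 0.9997).

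Intensities of all 36 arrays were background-corrected and quantile-normalized with neqc of limma 3.58.1 (R 4.3.3). Probes with detection p below 0.01 on at least 3 arrays were kept (19738), and the brightest stood for a gene (11437 genes). Symbols came from the platform annotation (30113 probes with 1 symbol, 8 with several, 17202 with none), updated by Entrez number. One limma fit held 12 groups with 24 residual degrees of freedom. Variances were moderated by eBayes along the signal level, and the test was checked on simulated data. Where no array of a group detected a gene, its fold is a bound ("at least N-fold") against the lowest detected signal. The number of arrays limits the precision. Alternatives were background correction, normalization, filter, probe rule, controls, a random siRNA block, a replicate block, leaving out arrays or siRNAs and a size threshold of 1.

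Named were SUPT6H, EWSR1, FLI1, each called elongation factor, the 14 rises and 14 falls with the largest smallest change over 3 siRNAs (placeholder names passed over), the 4 members of each list with the largest change (6 for the 3 lists with the largest median in size), the 4 largest differences each way from siSF3B1 and the 4 genes with the widest opposite calls. Further list members given, the ASNS promoter among them, were chosen after their values were seen.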

Additional observations from a re-analysis of the deposited data

Results flagged for a closer look

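Of genes called with all 3 siSUPT6H siRNAs, 8 differed most from siSF3B1 in the direct test, which does not use the siNeg arrays (limma adjusted p, 9 arrays against 9). The p-values are from the fit without the random siRNA block. TRIM55 was 4.59 higher with siSUPT6H (adjusted p = 4.69e-45), IDNK 3.67 (adjusted p = 5.02e-38), CCDC3 3.13 (adjusted p = 2.32e-36) and H2BC5 2.92 (adjusted p = 1.06e-36). The changes of TRIM55, IDNK and CCDC3 against siNeg had opposite signs for the 2 targets, at 3.57, 2.16 and 1.42 with siSUPT6H and -1.02, -1.50 and -1.71 with siSF3B1. Lower with siSUPT6H were SNHG1 (-3.69, adjusted p = 4.54e-47), SNHG17 (-3.39, adjusted p = 2.9e-43), DDIT3 (-3.23, adjusted p = 6.94e-42) and PVT1 (-2.94, adjusted p = 5.18e-35). SNHG1, SNHG17 and PVT1 were higher with siSF3B1 than with siNeg, by 2.03, 2.80 and 2.36. With siHNRNPH1 against its own siNeg arrays TRIM55 rose by 3.82 and H2BC5 by 2.79, so these rises are not particular to siSUPT6H. IDNK was not called there (-0.23).

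Among genes called in opposite directions by 2 of the siRNAs against SUPT6H, these 4 had the widest spread. LAMA4 was 2.58 higher with A1 than with Q3 (adjusted p = 1.86e-20). HSPH1 stood at -2.27 for A3 minus Q3 (adjusted p = 4.16e-24), and TTYH3 at 2.22 for the same pair (adjusted p = 7.89e-20). SPNS1 stood at -2.17 for A1 minus A3 (adjusted p = 1.73e-19).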

How the results depend on the processing

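The counts for the mean and for each siRNA stayed within 1.5 times of those reported under all alternatives but 2. With the siRNA as a random block (correlation 0.451) the mean called 2054 genes (1114 higher, 940 lower), which compares with 5424. With a change of at least 1 asked for, the counts were 493 for the mean, 558 for A1, 677 for A3, 631 for Q3, 262 for all 3 siRNAs and 1337 for the difference from siSF3B1. Leaving out 1 siSUPT6H or siNeg array, and no siSF3B1 array, gave 4751 to 5400 genes for the mean, 4078 to 4752 for A1 and 4392 to 4950 for A3. It gave 4367 to 5053 for Q3, 2354 to 2570 for all 3 and 8217 to 8389 for the difference from siSF3B1. The change of SUPT6H lay between -1.69 and -1.82 in those fits, at -0.81 without background correction and at -0.87 in the authors' values. Median scaling moved the higher share of calls with Q3 to 68.1%, which compares with 55.2%.

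Whether replicate numbers pair the samples cannot be told from these arrays. Between groups, the correlation of same-numbered arrays ran from -0.134 to 0.136 over 18 pairs, 3 above 0.1. For differently numbered arrays it ran from -0.197 to 0.277 over 36 pairs, 2 above 0.1. With the replicate block 5720 genes were called for the mean, 2842 with all 3 siRNAs and 8532 for the difference from siSF3B1, and SUPT6H changed by -1.77.

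Of 180 named genes called, 147 were called with the random block and 169 against Untreated. Among all named genes, called or not, signs turned in 4 cases in which either fit made a call. FLI1 was higher against all 6 siNeg arrays (0.59, adjusted p = 0.00276), HARS2 was at 0.058 against Untreated, TTYH3 was at 0.45 without Q3 and SPNS1 at 0.61 without A1. INTS3 (-0.37) lost its call without siNeg replicate 2 (-0.22, adjusted p = 0.102). ANGPTL4 changed by 1.13 as the mean over its probes. Of 1014 list medians under alternatives 901 moved by less than 1 SD over the 9 siSUPT6H arrays. The causes were not tested. Genes near background, SUPT6H with A1 among them, are limited by signal over background.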

Other observations

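Gene groups not described above moved in part. Of 22 cholesterol synthesis genes 12 were called higher and 1 lower (median 0.33), with DHCR7, which makes cholesterol from its last precursor, at 1.15 and HMGCS1, early in the pathway, at 0.72. With the siRNA as a random block 6 were higher and 0 lower. Of 16 neuronal and neuroendocrine genes 9 were called lower and 2 higher (median -0.33), or 4 and 1 with the random block. The granin gene SCG2 read 7.27 to 7.61 with siSUPT6H, against 9.31, 9.34 and 9.29 with siNeg (-1.88, limma adjusted p = 4.99e-27), and the growth cone gene GAP43 changed by -1.34. NPY, a neuropeptide gene, was undetected on all 3 siNeg arrays and rose at least 1.35-fold.

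Of 33 extracellular matrix and mesenchymal genes 14 were called higher and 6 lower (median 0.12), and 11 were higher with the siRNA as a random block. TWIST1, a mesenchymal transcription factor, rose by 1.46, with 1.78 and 1.86 for A1 and A3 and 0.73 for Q3. Immediate early genes held 15 rises and 6 falls of 33 (median 0.12), and KLF4 changed by -2.09. In the BCL2 family, regulators of cell death, 7 of 18 rose and 4 fell (median 0.02), with BNIP3L at 1.09 and BCL2L2 at -1.22. Interferon response genes held 10 rises and 6 falls of 29, with ISG15 at 1.36 and IFI35 at -1.05. Glucose uptake and hypoxia genes held 8 rises and 7 falls of 23, with ADM at 1.51 and TXNIP, which restrains glucose uptake, at -1.27. With the random block the immediate early, BCL2, interferon and glucose lists held 6, 4, 3 and 2 rises and 6, 2, 2 and 2 falls. Over all genes 25.7% were higher and 21.8% lower, and the BCL2, interferon and glucose counts lie near these shares.

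Factors of 4 RNA processing groups are given beside the 21.8% of all genes that were lower. Of 23 cleavage, polyadenylation and termination factors 10 were called lower and 2 higher, with CSTF2 at -0.73 and CLP1 at 0.58. Of 13 Integrator subunits 4 were lower, 1 of them with each siRNA, and 2 higher (median -0.05), and the lowest, INTS4 (-0.66), had a second probe at 0.01. Of 13 nonsense-mediated decay factors 5 were lower and 2 higher, with SMG5 at -0.80 and EIF4A3 at 0.58. Of 5 measured histone mRNA processing factors 3 were lower and 1 higher, led by ZNF473 (-0.42). With the siRNA as a random block these 4 groups held 2, 1, 3 and 0 falls.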
